A study of Elaeis oleifera with 12 samples.

Results

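The abscission zone (AZ) at the fruit base of a non-shedding (NSd) American oil palm, Elaeis oleifera, was profiled by RNA-seq at the ripe stage and at the pre-ripe (PR) stage, and this stage comparison was made within the NSd palm alone. Its members were the 3 ripe NSd and the 3 PR NSd libraries, or 6 of the 12 libraries of the series, and every locus with at least 1 RPKM (read counts scaled for transcript length and for the aligned reads of the library) in at least 1 library was tested, which gave 20495 of 29040 loci. The other 6 libraries came from a palm of the same progeny that sheds its fruit normally (Sd), with 3 ripe and 3 PR libraries. Each library was made from roughly 50 dissected pieces of fruit base with the AZ in them, near 3 g in all, and the stage was judged from the place of the bunch in the whorl and the colour of its fruit. The NSd palm is a single variant individual on which little or no fruit drop was seen in the field. No treatment is named for any group. The 3 libraries of a group were taken from 1 bunch, so the p-values cover only the variation among samples of that bunch, and stage and bunch cannot be told apart. The tissue label was not checked against AZ markers, because the polygalacturonases known from the AZ of African oil palm carry gene names that the locus descriptions do not give.

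In general an AZ is a band of small cells that sits between organ and plant. Fruit fall when the walls and the pectin-rich layers between these cells are taken apart. In many species ethylene promotes this process and auxin holds it back, while jasmonate, abscisic acid and reactive oxygen species modulate it, and polygalacturonases, endoglucanases, expansins and xyloglucan endotransglucosylase/hydrolases (XTHs) act on the wall itself. The study describes the AZ of E. oleifera as less distinct than that of African oil palm, with an abrupt change from mesocarp to pedicel. It proposes that this AZ is possibly much poorer in pectin. In oil palm the ripening mesocarp next to the AZ also fills with oil and carotenoids. Ripe and PR tissue were compared here in a palm that keeps its fruit. The comparison therefore asks which of these transcripts differed between the stages where separation was rarely seen.

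The libraries held between 19090375 and 34004517 aligned reads. Reads on rRNA loci took 1.21%, 6.77% and 13.4% of the 3 ripe NSd libraries, against 22.4%, 12.1% and 12.5% of the PR NSd libraries. The RPKM values were therefore divided by a factor for each library, the median ratio over 15658 loci with at least 1 RPKM in all libraries. These values are called rescaled RPKM. Over the loci tested, log2(rescaled RPKM + 1) correlated at r = 0.970 to 0.983 among ripe NSd libraries, 0.965 to 0.984 among PR NSd libraries and 0.897 to 0.938 between the stages of NSd, whereas the stages of Sd correlated at 0.951 to 0.980. Levels are compared between stages of a locus and fold changes are on the log2(rescaled RPKM + 1) scale, which understates the change of weakly expressed loci.

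Between the ripe and the PR stage 1960 loci differed in the NSd AZ, where each stage was 1 bunch. A total of 896 loci (4.37% of those tested) were higher and 1064 (5.19%) were lower in ripe NSd than in PR NSd with limma, where a call needed a Benjamini-Hochberg adjusted p below 0.01 and more than 1 unit of log2 change. Counts of list members below are to be read against these shares of 4.37% and 5.19%. The median change of the higher loci was 1.40 and that of the lower loci -1.51, and 197 and 249 of them passed a log2 fold change of 2. The ripe and PR libraries did not overlap at 1959 of the 1960 called loci, while 44.6% of all loci tested did not overlap. Where called loci below are said not to overlap, this followed from the call and is no further support. The split depended on the scaling. With RPKM as deposited, which moved the median change over all loci to 0.31 where it was 0.02 after rescaling, 1592 loci were higher and 630 lower, so that 71.7% of the calls were higher in place of 45.7%. With rRNA loci left out of the totals 1318 were higher and 769 lower. All 896 higher calls remained called with RPKM as deposited, as did 630 of the 1064 lower ones, and no called locus changed sign.

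**Figure D1:**
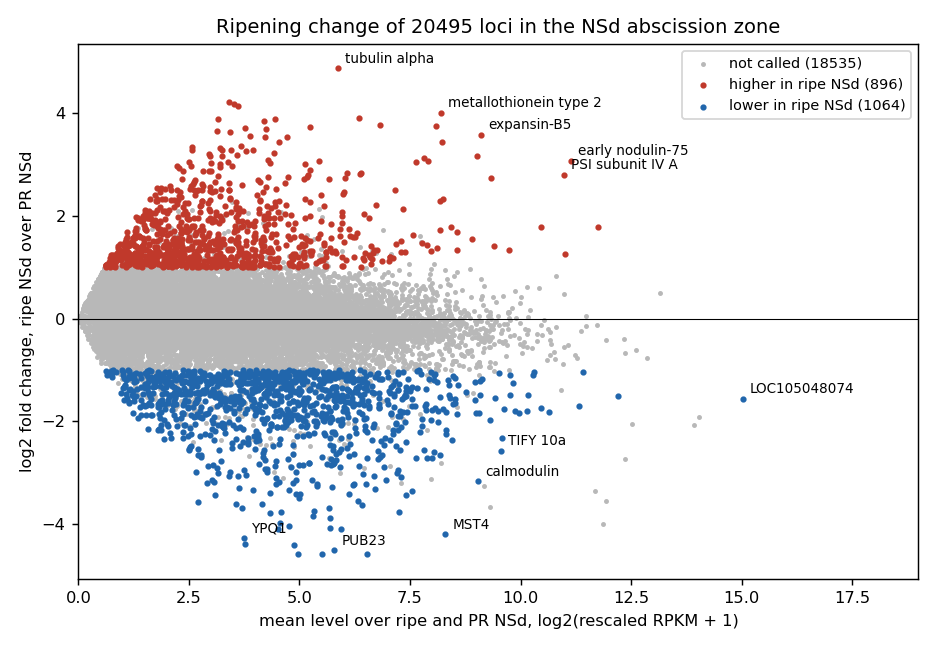
Each point is 1 of the 20495 loci tested, with its mean level over the ripe and PR NSd libraries on the x axis, as log2(rescaled RPKM + 1), and its log2 fold change of ripe NSd over PR NSd on the y axis. The 896 loci higher in ripe NSd are red and the 1064 lower loci blue. Changed loci were found at low and at high levels, and the most abundant of them, LOC105048074, lay among the lower ones.

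The changed loci were chosen on the ripe and PR NSd levels, so their place among the 4 groups is a description. Of the 1064 loci lower in ripe NSd, 623 had their lowest mean of all 4 groups in ripe NSd and 992 their highest in PR NSd. Of the 896 higher loci, 550 had their highest mean in ripe NSd and 853 their lowest in PR NSd. The median level of the lower loci was 3.10, 3.31 and 3.49 in ripe NSd, on the log2 scale, against 4.89, 5.19 and 5.06 in PR NSd, and it lay between 3.27 and 4.07 in the 6 Sd libraries. The rRNA share moved with part of this. At 40.3% of the lower loci the 3 ripe NSd levels ran in the order of the rRNA share, lowest where rRNA was lowest, against 17.0% of all loci tested, although in PR NSd the library with 22.4% rRNA was the highest of its group at 24.8% of the lower loci and the lowest at 49.0%. With the rRNA share as a covariate 774 loci were higher and 899 lower, and 621 of the 896 and 685 of the 1064 calls remained. Among NSd libraries of like rRNA share, ripe NSd replicate 3 against PR NSd replicates 2 and 3, 490 were higher and 454 lower, with 411 and 378 of the main calls remaining. Both alternatives were chosen after seeing the data. At the 18 named loci whose call was lost with the covariate, the log2 fold change was 64.7% to 113% of its value without it (median 94.0%). At the 46 whose call was lost among libraries of like rRNA share, it was 59.2% to 118% (median 86.6%). The part of the rRNA share in the stage change was not tested beyond this.

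**Figure D2:**
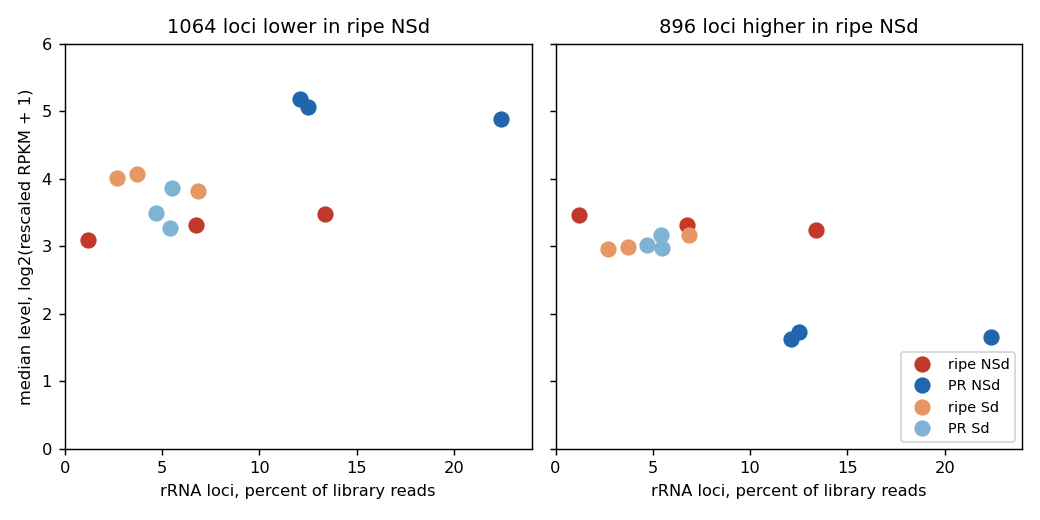
The y axis gives the median log2(rescaled RPKM + 1) over the 1064 loci lower in ripe NSd (left) and over the 896 loci higher in ripe NSd (right) in each of the 12 libraries, and the x axis the percent of library reads on rRNA loci. The 3 PR NSd libraries stood above all others on the left, between 4.89 and 5.19, and below all others on the right, between 1.62 and 1.73. The loci were chosen on the NSd levels.

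Several loci of jasmonate signaling were lower in the ripe than in the PR bunch of the NSd palm. Jasmonate is a lipid hormone of wounding, defence and organ development, and TIFY proteins of the JAZ type are repressors of its response whose genes are themselves induced by the hormone. Of 16 JAZ and related TIFY loci tested, 8 fell and 1 rose, where 5.19% and 4.37% of all loci did, and their median log2 fold change was -0.88, against 0.02 over all loci. A TIFY 5A locus (LOC105059530) had 0.419, 2.14 and 5.37 rescaled RPKM in ripe NSd, against 47.1, 60.5 and 42.1 in PR NSd (log2 fold change -4.04 ± 0.59 (SE), adjusted p = 0.000418). A TIFY 9 locus (LOC105051062) had 4.48, 1.81 and 5.0 rescaled RPKM in ripe NSd, against 39.1, 50.5 and 31.9 in PR NSd (log2 fold change -3.17 ± 0.32 (SE), adjusted p = 4.27e-05). The most abundant member, a TIFY 10a locus (LOC105058608), had 124, 214 and 348 rescaled RPKM in ripe NSd, against 1182, 1566 and 1053 in PR NSd (log2 fold change -2.57 ± 0.38 (SE), adjusted p = 0.000456). No ripe library reached the lowest PR library at any of these loci, and nearly all called loci had no overlap. Further TIFY 10a (LOC105053062, LOC105042036) and TIFY 5A (LOC105033988, LOC105033989) loci fell by 2.55 to 3.75 on the log2 scale, and loci of the same name may be close copies that share reads. The last TIFY 10a locus (LOC105056702) changed by -1.17, a call that was lost with RPKM as deposited and without any 1 of PR NSd replicates 2 and 3 and ripe NSd replicates 2 and 3 (adjusted p up to 0.0278). With the rRNA share as a covariate 7 of the 16 fell and none rose, and among NSd libraries of like rRNA share 3 fell and none rose (limma). The single member that rose, TIFY 6b (LOC105053204), had 130.5, 98.4 and 88.9 rescaled RPKM in ripe NSd, against 20, 31.2 and 44.7 in PR NSd (log2 fold change 1.75 ± 0.34 (SE), adjusted p = 0.00218, and 0.0104 without ripe NSd replicate 1, with the call also lost with the rRNA covariate).

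Enzymes that make jasmonate showed the same direction at fewer loci. Of 21 loci of jasmonate synthesis 5 fell and 1 rose, with a median of -0.42. With the rRNA covariate 4 fell and 2 rose (median -0.50), and with RPKM as deposited 3 fell and 2 rose (median -0.12). Among libraries of like rRNA share the median was -0.41. Allene oxide synthase 1 (LOC105060026), which commits the lipid precursor to the pathway, had 52.4, 92.0 and 116 rescaled RPKM in ripe NSd, against 269, 269 and 186 in PR NSd (log2 fold change -1.52 ± 0.25 (SE), adjusted p = 0.000818). For 12-oxophytodienoate reductase 7 (LOC105053093), which reduces a later intermediate in the peroxisome, the levels were 97.0, 106 and 116 rescaled RPKM in the 3 ripe NSd libraries and 232, 262 and 226 in the 3 PR NSd libraries (log2 fold change -1.17 ± 0.12 (SE), adjusted p = 5.34e-05), with the fold change inside the limit of 1 when RPKM was used as deposited. A putative lipoxygenase 5 (LOC105041807) averaged 18.4 ± 11.6 rescaled RPKM in ripe NSd and 82.3 ± 21.9 in PR NSd (SD, n = 3 each; adjusted p = 0.00218 with limma, and 0.0116 without PR NSd replicate 2). The member that rose was a weakly expressed linoleate 13S-lipoxygenase 2-1 (LOC105039460), at 5.63, 5.02 and 5.03 rescaled RPKM in ripe NSd, against 0.142, 0.327 and 0.258 in PR NSd. MYC2 (LOC105059593), the main transcription factor released when JAZ repressors are degraded, had 1.40, 2.31 and 2.82 rescaled RPKM in ripe NSd, against 7.85, 12.5 and 7.97 in PR NSd (log2 fold change -1.71 ± 0.27 (SE), adjusted p = 0.00063). The jasmonate loci named here were lower in ripe NSd, apart from TIFY 6b and linoleate 13S-lipoxygenase 2-1. They were picked among called loci or after their values were seen, so their shared direction followed in part from the choice. Not called were 15 of the 21 synthesis loci and 7 of the 16 JAZ loci. At an unadjusted p under 0.05 (limma), 11 synthesis loci were lower and 3 higher, and 8 JAZ loci lower and 5 higher. With the rRNA covariate the calls of allene oxide synthase 1 and lipoxygenase 5 were lost.

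Ethylene synthesis changed in both directions. Of 13 loci for its last enzymes, ACC synthase and ACC oxidase, 3 fell and 3 rose. One ACC oxidase (LOC105035107) had 31.4, 9.18 and 19.8 rescaled RPKM in ripe NSd, against 129, 334 and 384 in PR NSd (log2 fold change -3.75 ± 0.50 (SE), adjusted p = 0.000233). Another (LOC105061033) had 679, 381 and 401 rescaled RPKM in ripe NSd, against 101, 92.7 and 91.2 in PR NSd (log2 fold change 2.30 ± 0.47 (SE), adjusted p = 0.00326). This call was lost without ripe NSd replicate 1, PR NSd replicate 2 or PR NSd replicate 3 (adjusted p up to 0.0152) and with the rRNA covariate. ACC oxidase 1 (LOC105047965) had 25.8, 34.5 and 24 rescaled RPKM in ripe NSd, against 10.1, 5.26 and 4.32 in PR NSd (log2 fold change 2.0 ± 0.27 (SE), adjusted p = 0.000243). In rescaled RPKM, which is per length, LOC105061033 was above LOC105035107 in all ripe libraries and below it in all PR libraries. None of 14 loci of ethylene receptors and signaling was called with limma, and at an unadjusted p under 0.05 there were 4 higher and 5 lower.

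Among the ERF and DREB factors, which bind GCC-box and drought-response elements downstream of ethylene and stress, 18 of 102 fell and 4 rose. Their median change was -0.11, and 0.17 with RPKM as deposited, so the sign of the median depended on the scaling. ERF019 (LOC105036338) had 0.281, 1.56 and 4.0 rescaled RPKM in ripe NSd, against 19.1, 60.8 and 50.2 in PR NSd (log2 fold change -3.97 ± 0.51 (SE), adjusted p = 0.000181). ERF025-like (LOC105056762) was at 0.0267, 0.177 and 0.391 rescaled RPKM in the 3 ripe NSd libraries and 14.7, 26.9 and 33.8 in the 3 PR NSd libraries (log2 fold change -4.38 ± 0.55 (SE), adjusted p = 0.000164), which is 1 to 10 reads in each ripe library and 329 to 773 in each PR library. An ABR1 locus (LOC105038034), named for a repressor of abscisic acid responses in Arabidopsis, had 4.81, 4.27 and 2.34 rescaled RPKM in ripe NSd, against 32.3, 84.9 and 103 in PR NSd (log2 fold change -3.84 ± 0.50 (SE), adjusted p = 0.000194). PLT2 (LOC105049456), a factor of root stem cells in Arabidopsis, averaged 18.0 ± 6.12 rescaled RPKM in ripe NSd and 152 ± 43.8 in PR NSd (SD, n = 3 each; log2 fold change -3.02 ± 0.55 (SE), adjusted p = 0.00154). The ripe and PR libraries did not overlap at any of these 4 loci, as at 1959 of the 1960 called loci. With the rRNA covariate 12 of the family were lower, and 5 among libraries of like rRNA share.

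WRKY and NAC factors, both large plant families with members that act in defence and senescence, also fell far more often than they rose. Of 71 WRKY loci 15 fell and 4 rose (median -0.39), and of 66 NAC loci 14 fell and 1 rose (median -0.14, and 0.07 with RPKM as deposited). WRKY76 (LOC105060191) had 54.2, 69.4 and 74.6 rescaled RPKM in ripe NSd, against 366, 564 and 395 in PR NSd (log2 fold change -2.71 ± 0.28 (SE), adjusted p = 4.93e-05). A WRKY71 locus (LOC105051963) had 14.5, 14.3 and 24.6 rescaled RPKM in ripe NSd, against 109.9, 226 and 236 in PR NSd (log2 fold change -3.31 ± 0.32 (SE), adjusted p = 2.80e-05). An NAC68 locus (LOC105046069) had 109, 101 and 129 rescaled RPKM in ripe NSd, against 533, 628 and 583 in PR NSd (log2 fold change -2.36 ± 0.28 (SE), adjusted p = 0.00012), and a further NAC68 locus (LOC105052358) changed by -3.07 ± 0.50 (SE). Against this trend, NAC104 (LOC105038484) was higher, at 90.0, 52.2 and 42.1 rescaled RPKM in ripe NSd, against 5.29, 6.32 and 13.9 in PR NSd (log2 fold change 2.75 ± 0.34 (SE), adjusted p = 0.000136). The homologous Arabidopsis factor XND1 acts in xylem. WRKY70 (LOC105044828), a factor of salicylate signaling in Arabidopsis, was higher too, at 39.8, 27.2 and 24.3 rescaled RPKM in ripe NSd, against 7.13, 4.66 and 7.74 in PR NSd (log2 fold change 2.06 ± 0.23 (SE), adjusted p = 6.66e-05). Among bHLH factors 16 of 94 fell and 12 rose, and bHLH35 (LOC105050852) had 6.56, 10.6 and 19.1 rescaled RPKM in ripe NSd, against 90.0, 184 and 164 in PR NSd (log2 fold change -3.54 ± 0.43 (SE), adjusted p = 0.000129). With the rRNA covariate 11 WRKY and 15 NAC loci were lower, and among libraries of like rRNA share 4 and 5.

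Calcium sensors and heat shock proteins formed the next set of loci that fell. Calmodulin and calmodulin-like proteins bind calcium released by many stimuli and pass the signal on to their targets. Of 70 such loci 14 fell and 3 rose, with a median of -0.32 that was 0.01 with RPKM as deposited. A calmodulin locus (LOC105042206) had 92.0, 106 and 115 rescaled RPKM in ripe NSd, against 858, 1065 and 902 in PR NSd (log2 fold change -3.16 ± 0.29 (SE), adjusted p = 2.10e-05). Calmodulin-7 (LOC105045506) had 255, 218 and 271 rescaled RPKM in ripe NSd, against 573, 799 and 895 in PR NSd (log2 fold change -1.58 ± 0.19 (SE), adjusted p = 0.000117). Heat shock proteins are chaperones that hold other proteins in a folded state. Of 97 heat shock and co-chaperone loci 21 fell and 2 rose (median -0.29). HSP83 (LOC105054741), a chaperone of the HSP90 family, had 20.5, 20.8 and 24.9 rescaled RPKM in ripe NSd, against 112, 207 and 358 in PR NSd (log2 fold change -3.15 ± 0.31 (SE), adjusted p = 3.29e-05). A heat shock cognate 70 kDa protein (LOC105042770) had 83.8, 96.3 and 89.2 rescaled RPKM in ripe NSd, against 180.2, 255 and 414 in PR NSd. A small chloroplastic heat shock protein (LOC105042707) was at 0.947, 0.434 and 0.862 rescaled RPKM in the 3 ripe NSd libraries and 17.5, 14.1 and 37.9 in the 3 PR NSd libraries (log2 fold change -3.68 ± 0.29 (SE), adjusted p = 9.38e-06). The PR libraries differed widely among themselves at these chaperones. Every PR library was above every ripe one, and nearly all called loci had no overlap. With the rRNA covariate 19 heat shock loci fell, and among libraries of like rRNA share 10 did.

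Other loci of stress and defence changed in both directions. The largest fall among described loci with a group mean of at least 20 was that of PUB23. The E3 ubiquitin ligase PUB23 (LOC105037988), which in Arabidopsis dampens immune responses, had 0.655, 3.67 and 10.7 rescaled RPKM in ripe NSd, against 82.9, 132 and 94.4 in PR NSd (log2 fold change -4.51 ± 0.61 (SE), adjusted p = 0.000253). Of 40 glutathione S-transferases, which conjugate glutathione to reactive compounds, 6 rose and 5 fell. Glutathione S-transferase U19 (LOC105046783) had 0.266, 1.08 and 4.95 rescaled RPKM in ripe NSd, against 30.9, 67.2 and 66.3 in PR NSd (log2 fold change -4.39 ± 0.78 (SE), adjusted p = 0.00133). Glutathione S-transferase F12 (LOC105058893) was higher, at 25.4, 23.3 and 17.8 rescaled RPKM in ripe NSd, against 1.94, 1.08 and 0.820 in PR NSd (log2 fold change 3.36 ± 0.30 (SE), adjusted p = 1.93e-05). A probable glutathione S-transferase parA (LOC105037017) was higher as well, at 159, 113 and 168 rescaled RPKM in ripe NSd, against 24, 18.3 and 16.7 in PR NSd (log2 fold change 2.83 ± 0.19 (SE), adjusted p = 2.74e-06). Gamma-glutamylcyclotransferase 2-2 (LOC105050450), which degrades glutathione, had 1.06, 1.18 and 2.28 rescaled RPKM in ripe NSd, against 27.2, 56.8 and 43.5 in PR NSd. Among NSd libraries of like rRNA share PUB23 was not called at a log2 fold change of -3.26. Glutathione S-transferase U19 was not called there, at -3.51, nor with the rRNA covariate, at -4.23. Of 95 chitinase, glucanase and pathogenesis-related loci 15 rose and 10 fell, or 10 and 13 with the rRNA covariate. A chitin elicitor-binding protein (LOC105061543), a receptor for fungal chitin fragments in rice, had 16.6, 19.5 and 17.5 rescaled RPKM in ripe NSd, against 81.2, 96.3 and 81 in PR NSd (log2 fold change -2.21 ± 0.14 (SE), adjusted p = 2.28e-06). A chitinase 2-like locus (LOC105046567) had 7.18, 9.53 and 14.5 rescaled RPKM in ripe NSd, against 56.2, 190.2 and 231 in PR NSd (log2 fold change -3.63 ± 0.47 (SE), adjusted p = 0.000186). The F-box protein At1g61340 (LOC105032735) and the transporter DETOXIFICATION 49-like (LOC105054146) changed by -4.08 and -3.88. Of 11 dehydrin and related loci 1 rose and 2 fell. Dehydrin DHN1 (LOC105042628), a protein of drying tissue, averaged 256 ± 53.7 rescaled RPKM in ripe NSd and 1267 ± 109.6 in PR NSd (SD, n = 3 each; log2 fold change -2.32 ± 0.19 (SE), adjusted p = 1.21e-05), and abscisic stress-ripening protein 5 (LOC105038353) had 529, 789.6 and 785 rescaled RPKM in ripe NSd, against 3133, 2356 and 1945 in PR NSd. Both were among the well expressed loci of PR NSd.

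Loci of other hormones changed too. Of 31 loci of auxin transport and conjugation 8 fell (25.8%) and 2 rose (6.45%), where 5.19% and 4.37% of all loci did. GH3.8 (LOC105058018), an enzyme that couples auxin to amino acids and so lowers its active form, had 3.71, 3.24 and 3.79 rescaled RPKM in ripe NSd, against 31.0, 45.9 and 39.7 in PR NSd (log2 fold change -3.11 ± 0.18 (SE), adjusted p = 1.30e-06). PIN-LIKES 7 (LOC105055275), of a family of auxin carriers inside the cell, had 7.19, 8.46 and 7.49 rescaled RPKM in ripe NSd, against 52.4, 60.8 and 31.5 in PR NSd (log2 fold change -2.45 ± 0.27 (SE), adjusted p = 6.99e-05). The auxin efflux carrier 1c (LOC105053238) was higher, at 26.0, 27.7 and 23.9 rescaled RPKM in ripe NSd, against 13.4, 5.14 and 7.0 in PR NSd (log2 fold change 1.59 ± 0.27 (SE), adjusted p = 0.00102). Auxin carriers thus changed in both directions. Of 72 Aux/IAA, ARF and SAUR loci, the early response genes and factors of auxin, 7 fell and 2 rose, among them a SAUR32 locus (LOC109505080) at 68.1, 109 and 120.2 rescaled RPKM in ripe NSd, against 352, 568 and 279 in PR NSd. Of 45 cytokinin loci 13 fell and 3 rose (median -0.40). A cytokinin riboside 5'-monophosphate phosphoribohydrolase (LOC105044305), the LOG-type enzyme that releases active cytokinin, had 2.41, 2.88 and 1.66 rescaled RPKM in ripe NSd, against 52.0, 41.7 and 38.0 in PR NSd (log2 fold change -3.76 ± 0.21 (SE), adjusted p = 8.94e-07). Other lower members were response regulators, which relay or damp the cytokinin signal, such as ORR9 (LOC105052748) at 34.7, 32.4 and 30.4 rescaled RPKM in ripe NSd, against 65.2, 121 and 158 in PR NSd. Another response regulator, ORR3 (LOC105034491), was higher at 20, 15.3 and 17.6 rescaled RPKM in ripe NSd, against 4.95, 3.89 and 4.98 in PR NSd.

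Of 21 gibberellin loci 4 rose (19.05%) and 1 fell (4.76%), where 4.37% and 5.19% of all loci did. Gibberellin 2-beta-dioxygenase 8 (LOC105046893), which inactivates gibberellins, had 0.115, 2.04 and 2.69 rescaled RPKM in ripe NSd, against 21.3, 19.9 and 12.6 in PR NSd (log2 fold change -2.99 ± 0.50 (SE), adjusted p = 0.000995). Gibberellin-regulated protein 12 (LOC105046106), a small cysteine-rich wall peptide, had 30.4, 17.6 and 14.9 rescaled RPKM in ripe NSd, against 0.0877, 0.315 and 0.0859 in PR NSd (log2 fold change 4.18 ± 0.22 (SE), adjusted p = 6.12e-07), and its PR values rest on 1 to 4 reads a library. Gibberellin-regulated protein 1 (LOC109504800) had 79.4, 63.8 and 38.9 rescaled RPKM in ripe NSd, against 2.43, 9.54 and 10.2 in PR NSd (log2 fold change 3.00 ± 0.43 (SE), adjusted p = 0.000344). None of the 8 loci of abscisic acid metabolism was called with limma, and 2 were lower at an unadjusted p under 0.05. Of 18 loci of abscisic acid receptors and protein phosphatases 2C, 3 rose (16.7%) and 1 fell (5.56%), with a median of 0.29. At an unadjusted p under 0.05 (limma) 7 of these were higher and 5 lower, and with the rRNA covariate 3 rose and none fell.

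**Figure D3:**
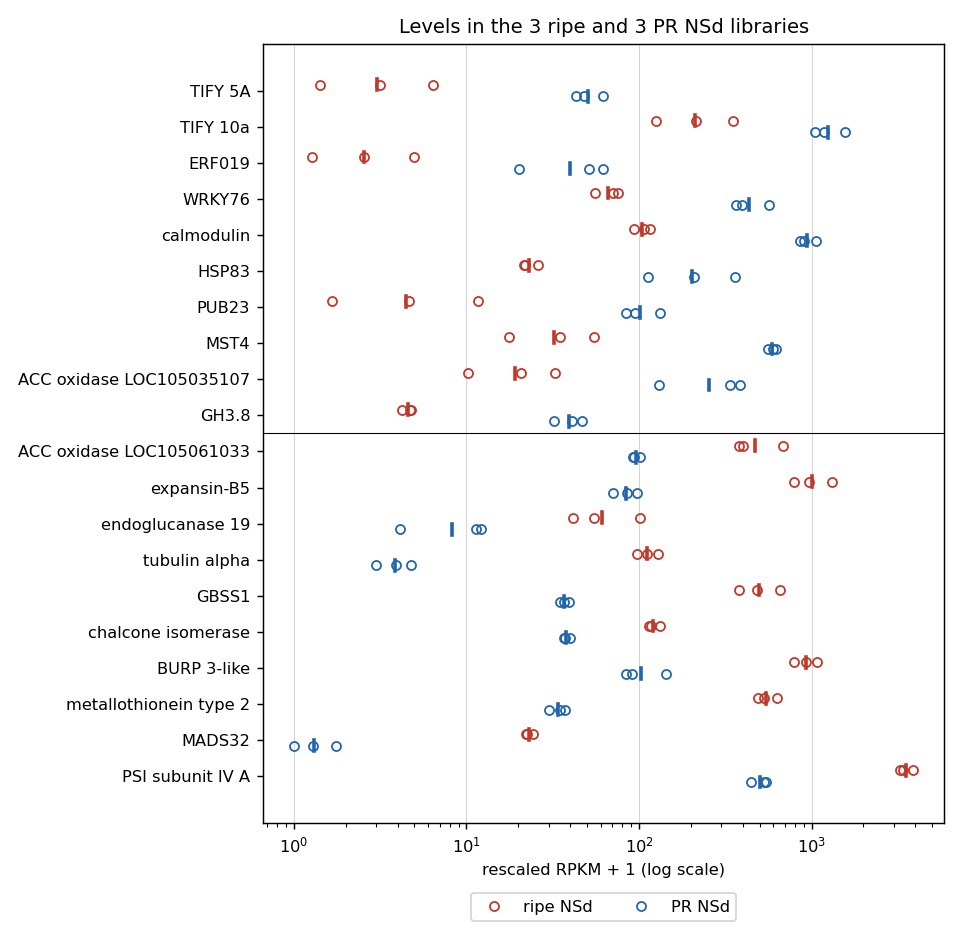
Levels of 20 loci in the 3 ripe NSd (red) and the 3 PR NSd (blue) libraries, on a log axis of rescaled RPKM + 1. Circles are libraries and bars are geometric means. The 10 loci above the line were lower and the 10 below it were higher in ripe NSd. The libraries of both stages did not overlap at any of them, as at nearly all called loci.

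Among wall-loosening enzymes the endoglucanases rose most often. They cut beta-1,4-glucans such as those of xyloglucan and cellulose and have been tied to abscission since the early studies of leaf fall. Of 10 endoglucanase loci 6 rose and none fell, also at an unadjusted p under 0.05, with a median log2 fold change of 1.13 (limma). Endoglucanase 19 (LOC105040704) had 100.1, 54.1 and 40.5 rescaled RPKM in ripe NSd, against 10.4, 3.15 and 11.1 in PR NSd (log2 fold change 2.89 ± 0.55 (SE), adjusted p = 0.00199). Endoglucanase 10 (LOC105035228) had 10.1, 8.66 and 8.58 rescaled RPKM in ripe NSd, against 0.175, 0.336 and 0.171 in PR NSd (log2 fold change 3.04 ± 0.18 (SE), adjusted p = 1.15e-06). Expansins loosen walls without cutting them, and 3 of 20 rose while 2 fell. Expansin-B5 (LOC105043691) had 1317, 791 and 968 rescaled RPKM in ripe NSd, against 96.8, 69.7 and 84.5 in PR NSd (log2 fold change 3.58 ± 0.35 (SE), adjusted p = 3.00e-05). For expansin-A10 (LOC105044913) the levels were 253, 107 and 93.1 rescaled RPKM in ripe NSd, against 6.50, 4.79 and 17.1 in PR NSd (log2 fold change 3.90 ± 0.43 (SE), adjusted p = 6.53e-05). Expansin-A11 (LOC105055127) was lower at 0.588, 0.868 and 1.44 rescaled RPKM in ripe NSd, against 8.20, 13.6 and 19.2 in PR NSd (log2 fold change -2.85 ± 0.27 (SE), adjusted p = 2.93e-05). The ripe libraries differed widely at expansin-A10 and endoglucanase 19. They lay above all PR libraries at both, and nearly all called loci had no overlap. With the rRNA covariate, 3 endoglucanases rose, endoglucanase 19 no longer among them.

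Pectin enzymes and XTHs changed in both directions. Of 23 polygalacturonases, which break down pectin, 4 rose (17.4%) and 1 fell (4.35%), with a median of 0.32. Of all loci 4.37% rose and 5.19% fell. A probable polygalacturonase (LOC105059528) had 41.1, 58.7 and 53.7 rescaled RPKM in ripe NSd, against 13.4, 17.2 and 19.5 in PR NSd (log2 fold change 1.56 ± 0.16 (SE), adjusted p = 4.17e-05). Another (LOC105039892) was lower at 4.63, 4.75 and 5.67 rescaled RPKM in ripe NSd, against 16.1, 18.5 and 18.2 in PR NSd (log2 fold change -1.63 ± 0.23 (SE), adjusted p = 0.000348). None of 18 pectate lyase and pectinesterase loci was called (limma; 6 higher and 5 lower at an unadjusted p under 0.05). Of 27 XTH loci, whose enzymes cut and rejoin xyloglucan, 4 rose (14.8%) and 3 fell (11.1%). XTH 22 (LOC105050824), 1 of the lower members, had 7.97, 10.1 and 9.41 rescaled RPKM in ripe NSd, against 40.5, 54.0 and 25.9 in PR NSd (log2 fold change -1.97 ± 0.34 (SE), adjusted p = 0.00113). This call was lost with the rRNA covariate (adjusted p = 0.0112) at a fold change of -1.94.

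Several structural wall proteins rose as well. Fasciclin-like arabinogalactan proteins are surface glycoproteins of growing and secondary walls, and 7 of the 25 arabinogalactan protein loci rose while none fell (limma; 3 were lower at an unadjusted p under 0.05). Fasciclin-like arabinogalactan protein 2 (LOC105060306) had 14.8, 16 and 16.5 rescaled RPKM in ripe NSd, against 0.500, 0.691 and 0.867 in PR NSd (log2 fold change 3.32 ± 0.23 (SE), adjusted p = 3.78e-06). Protein 8 (LOC105054173) had 16.6, 15.6 and 18.9 rescaled RPKM in ripe NSd, against 1.87, 3.07 and 2.73 in PR NSd. An extensin (LOC105037998), a hydroxyproline-rich wall protein, had 33.7, 20.9 and 18.8 rescaled RPKM in ripe NSd, against 1.5, 0.241 and 1.17 in PR NSd (log2 fold change 3.71 ± 0.29 (SE), adjusted p = 8.04e-06). Early nodulin-75 (LOC105059233), a proline-rich protein, averaged 3999 ± 519.8 rescaled RPKM in ripe NSd and 490.3 ± 157 in PR NSd (SD, n = 3 each; log2 fold change 3.07 ± 0.23 (SE), adjusted p = 6.13e-06). The catalytic subunit 8 of cellulose synthase (LOC105056610) had 24.7, 27.5 and 32.2 rescaled RPKM in ripe NSd, against 6.59, 7.63 and 7.81 in PR NSd (log2 fold change 1.80 ± 0.13 (SE), adjusted p = 5.41e-06). The last locus had the largest rise among described loci with a group mean of at least 20. This alpha tubulin (LOC105061039), a subunit of the microtubules that guide cellulose deposition, had 127, 96.9 and 111 rescaled RPKM in ripe NSd, against 2.91, 2.0 and 3.8 in PR NSd (log2 fold change 4.87 ± 0.28 (SE), adjusted p = 1.19e-06).

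The BURP domain loci had the highest median change of the 55 gene lists. BURP proteins are plant-specific secreted proteins, some of which are linked to pectin in the wall. Of 12 loci 8 rose and none fell, with a median log2 fold change of 2.18 (limma; none was lower at an unadjusted p under 0.05). BURP domain-containing protein 3-like (LOC105036039) had 1076, 788 and 931 rescaled RPKM in ripe NSd, against 142, 83.1 and 89.8 in PR NSd (log2 fold change 3.17 ± 0.26 (SE), adjusted p = 1.09e-05). BURP domain-containing protein 3 (LOC105037817) had 438, 404 and 444 rescaled RPKM in ripe NSd, against 71.5, 40.1 and 43.3 in PR NSd (log2 fold change 3.08 ± 0.25 (SE), adjusted p = 1.23e-05). Members of type 6 (LOC105042312, LOC105048270) averaged 404 ± 26.9 rescaled RPKM in ripe NSd and 47.9 ± 20.9 in PR NSd at the first of them (SD, n = 3 each), with fold changes of 3.13 and 3.05. These 4 loci changed by 3.05 to 3.17 on the log2 scale, and near-identical copies may share reads. With the rRNA covariate 8 of the 12 rose, and among libraries of like rRNA share 7 did.

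Flavonoid, phenylpropanoid and peroxidase loci changed too. Of 39 flavonoid loci 9 rose and 1 fell, with a median of 0.39, and with the rRNA covariate 8 rose and 5 fell. Of 23 loci of the entry into phenylpropanoids 3 rose and none fell (limma; 4 were lower at an unadjusted p under 0.05), but 3 rose and 3 fell with the rRNA covariate or without PR NSd replicate 1, and 3 and 2 did among libraries of like rRNA share. Of 38 class III peroxidases, which use hydrogen peroxide to cross-link phenolics in the wall, 11 rose and 4 fell (median 0.45), or 9 and 4 with the covariate and 4 and 2 among libraries of like rRNA share. Chalcone-flavonone isomerase (LOC105035984), an early enzyme of flavonoid synthesis, had 131, 116 and 113 rescaled RPKM in ripe NSd, against 36.4, 35.7 and 38.7 in PR NSd (log2 fold change 1.67 ± 0.16 (SE), adjusted p = 2.48e-05). Flavonoid 3',5'-hydroxylase 1 (LOC105045493), which sets the hydroxylation of anthocyanins, had 33.7, 26.7 and 18.0 rescaled RPKM in ripe NSd, against 0.814, 1.17 and 1.82 in PR NSd (log2 fold change 3.56 ± 0.33 (SE), adjusted p = 2.18e-05). The member that fell, flavanone 3-dioxygenase 2 (LOC105036760), had 21.8, 9.39 and 13.6 rescaled RPKM in ripe NSd, against 40.3, 74.7 and 83.1 in PR NSd. Hydroxycinnamoyltransferase 1 (LOC105060826) was higher at 12.2, 14.1 and 14.8 rescaled RPKM in ripe NSd, against 0.928, 1.41 and 1.73 in PR NSd (log2 fold change 2.65 ± 0.14 (SE), adjusted p = 6.01e-07). Peroxidase 10 (LOC105055428) averaged 159 ± 8.66 rescaled RPKM in ripe NSd and 72.4 ± 3.29 in PR NSd (SD, n = 3 each). For peroxidase 72 (LOC105056224) the means were 8.82 ± 1.10 rescaled RPKM in ripe NSd and 0.749 ± 0.464 in PR NSd (SD, n = 3 each). The libraries of the stages did not overlap at either, as at nearly all called loci. Peroxidase 17 (LOC105058444) was lower at 8.16, 17.4 and 23.6 rescaled RPKM in ripe NSd, against 61.9, 58.9 and 75.6 in PR NSd (log2 fold change -2.04 ± 0.29 (SE), adjusted p = 0.000321). The lignin and secondary wall list, which marks the woody pedicel beside the AZ, had 2 of 33 loci higher (6.06%) and 1 lower (3.03%). Both shares were near the 4.37% and 5.19% of all loci. The summed level of the list was 798 to 996 rescaled RPKM in ripe NSd and 691 to 787 in PR NSd.

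Sugar and starch genes changed in both directions, with 9 of 74 higher (12.2%) and 11 lower (14.9%), where 4.37% and 5.19% of all loci were. Granule-bound starch synthase 1 (LOC105059288), which makes the amylose of starch grains, had 657, 378 and 482 rescaled RPKM in ripe NSd, against 35.8, 33.8 and 38.1 in PR NSd (log2 fold change 3.74 ± 0.35 (SE), adjusted p = 2.39e-05). Beta-amylase 3 (LOC105043800), a starch-degrading enzyme of plastids, had 25.5, 17.7 and 16.5 rescaled RPKM in ripe NSd, against 91.2, 139 and 158 in PR NSd (log2 fold change -2.63 ± 0.31 (SE), adjusted p = 9.73e-05). Beta-amylase 3 was chosen after its values were seen. The median log2 fold change of the 74 loci was 0.007, so these loci do not stand for the list. A cell wall invertase, insoluble beta-fructofuranosidase 3 (LOC105038262), which splits sucrose outside the cell, had 61.5, 35.1 and 23.8 rescaled RPKM in ripe NSd, against 1.35, 1.80 and 1.69 in PR NSd (log2 fold change 3.88 ± 0.51 (SE), adjusted p = 0.000204). Aldose 1-epimerase (LOC105056540), which interconverts the forms of glucose, had 52.7, 22.5 and 25.7 rescaled RPKM in ripe NSd, against 1.05, 1.57 and 1.20 in PR NSd. The sugar transporter MST4 (LOC105032465), a hexose carrier in rice, had 16.7, 33.8 and 53.6 rescaled RPKM in ripe NSd, against 596, 622 and 559 in PR NSd (log2 fold change -4.20 ± 0.44 (SE), adjusted p = 5.01e-05), with no ripe library near any PR library. The sugar efflux carrier SWEET13 (LOC105061412) was higher, at 9.65, 12.5 and 7.28 rescaled RPKM in ripe NSd, against 0, 0.0853 and 0.0466 in PR NSd. A second efflux carrier, SWEET17 (LOC105045178), had 20.7, 8.96 and 9.36 rescaled RPKM in ripe NSd, against 0.660, 0.330 and 1.59 in PR NSd. Both were low in every PR NSd library. Other carriers were among the largest changes. A probable vacuolar amino acid transporter YPQ1 (LOC105055832) had 0.185, 0.329 and 0.508 rescaled RPKM in ripe NSd, against 24.1, 26.5 and 23.2 in PR NSd (log2 fold change -4.26 ± 0.16 (SE), adjusted p = 1.06e-07). A WAT1-related protein (LOC105051800) had 5.51, 4.54 and 5.86 rescaled RPKM in ripe NSd, against 55.3, 134 and 160.3 in PR NSd (log2 fold change -4.09 ± 0.43 (SE), adjusted p = 5.15e-05). A probable boron transporter 2 (LOC105040010) had 30.6, 34.5 and 35.1 rescaled RPKM in ripe NSd, against 1.74, 1.75 and 2.44 in PR NSd (log2 fold change 3.54 ± 0.16 (SE), adjusted p = 3.64e-07). Boron cross-links pectin in plant walls.

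Lists that mark tissue next to the AZ moved only in part. Of 46 plastid fatty acid synthesis loci 5 rose and 1 fell, with a summed level of 3514 to 4492 rescaled RPKM in ripe NSd and 3218 to 4064 in PR NSd. A stearoyl-ACP desaturase (LOC105049670), which makes oleate, had 295, 200.3 and 234 rescaled RPKM in ripe NSd, against 44.1, 35.9 and 44.8 in PR NSd (log2 fold change 2.51 ± 0.34 (SE), adjusted p = 0.000245). Acyl carrier protein 2 (LOC105032101), which holds the growing chain, had 37, 25.1 and 27.0 rescaled RPKM in ripe NSd, against 8.25, 5.13 and 7.16 in PR NSd (log2 fold change 1.97 ± 0.31 (SE), adjusted p = 0.000666). Among libraries of like rRNA share none of the 46 loci was called with limma, and the desaturase and the carrier protein had fold changes of 2.51 and 1.98 there (adjusted p = 0.0213 and 0.0306). Of 18 oil assembly loci 1 rose (5.56%) and 2 fell (11.1%), where 4.37% and 5.19% of all loci did. The summed level of this list was 225 to 271 in ripe NSd and 374 to 381 in PR NSd. The carotenoid list had 0 of 15 higher and 1 lower (limma; 4 higher and 2 lower at an unadjusted p under 0.05), at 335 to 365 in ripe NSd and 380 to 542 in PR NSd. Of 5 seed storage and oleosin loci 1 rose, oleosin 16 kDa (LOC105054330), a coat protein of oil bodies, at 39.0, 23.2 and 22.4 rescaled RPKM in ripe NSd, against 3.02, 2.99 and 4.18 in PR NSd, while the summed level of the list was 237 to 292 in ripe NSd and 225 to 298 in PR NSd. In bulk tissue fewer cells of a type and less RNA per cell cannot be told apart, and the part of neighbouring tissue in these results was not tested.

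Of 39 photosynthesis loci 7 rose and none fell (limma; 3 were lower at an unadjusted p under 0.05). Their summed level was 3543 to 4157 rescaled RPKM in ripe NSd and 646 to 784 in PR NSd, and 1 locus carried most of it. Photosystem I reaction center subunit IV A (LOC105053650) had 3895, 3260 and 3407 rescaled RPKM in ripe NSd, against 545, 527 and 442 in PR NSd (log2 fold change 2.80 ± 0.19 (SE), adjusted p = 2.74e-06). Another member that rose, the photosystem II protein PSB28 (LOC105053658), was at 19.7, 18.5 and 20.3 rescaled RPKM in ripe NSd, against 5.14, 3.8 and 4.65 in PR NSd.

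Some MADS-box and homeobox factors rose. Of 27 MADS-box loci 4 rose (14.8%) and none fell (limma; 4 were lower at an unadjusted p under 0.05). Of 74 homeobox loci 6 rose (8.11%, against 4.37% of all loci) and none fell (limma; 9 were lower at an unadjusted p under 0.05), while 1 fell with the rRNA covariate and 2 without PR NSd replicate 1. MADS-box factors set the identity of flower organs and steer fruit ripening in several species. MADS32 (LOC105041020) had 21.5, 21.2 and 23.3 rescaled RPKM in ripe NSd, against 0, 0.290 and 0.760 in PR NSd (log2 fold change 4.13 ± 0.23 (SE), adjusted p = 8.94e-07), with 0, 5 and 12 reads in the PR libraries. AGL80 (LOC105040111), known from the central cell of the Arabidopsis embryo sac, had 216, 178 and 235 rescaled RPKM in ripe NSd, against 15.3, 11.4 and 16.9 in PR NSd (log2 fold change 3.77 ± 0.15 (SE), adjusted p = 1.81e-07). The homeobox factor HOX21 (LOC105048577) had 13.6, 11.7 and 9.49 rescaled RPKM in ripe NSd, against 2.36, 0.958 and 2.81 in PR NSd (log2 fold change 2.09 ± 0.24 (SE), adjusted p = 0.000101). Of 69 cell cycle loci, which mark dividing cells, 7 rose (10.1%) and none fell with limma, where 6 were lower at an unadjusted p under 0.05. The summed level of this list was 784 to 837 in ripe NSd and 729 to 761 in PR NSd. The higher members included an inhibitor of the cycle, cyclin-dependent kinase inhibitor 1 (LOC105058260) at 54.0, 44.9 and 43.3 rescaled RPKM in ripe NSd, against 18.5, 14.9 and 16.9 in PR NSd.

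**Figure D4:**
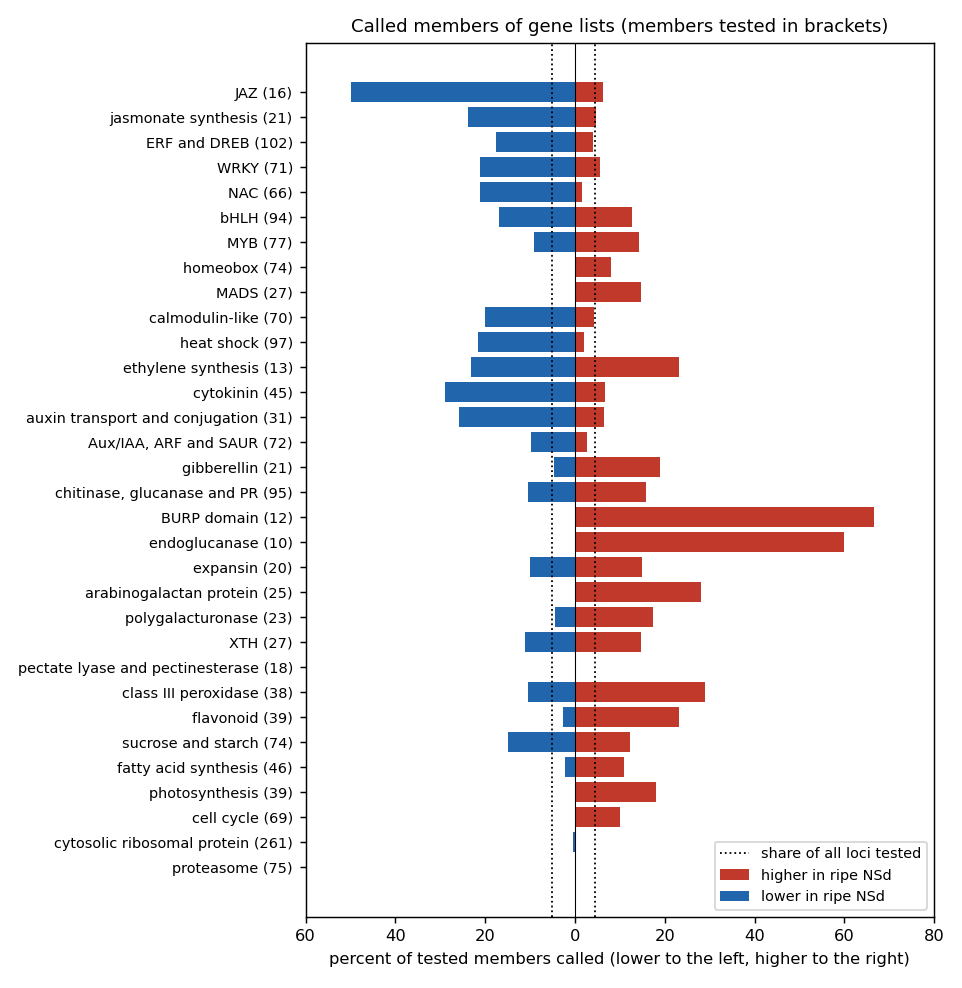
Percent of the tested members of 32 gene lists called higher (red, to the right) or lower (blue, to the left) in ripe NSd than in PR NSd, with the number of members tested in brackets. Dotted lines mark the share of all loci tested, 4.37% higher and 5.19% lower. JAZ and cytokinin had the highest shares of lower members, and BURP domain and endoglucanase the highest shares of higher members.

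Among the most abundant changed loci, an uncharacterized non-coding transcript (LOC105048074) had 14650, 17200 and 18900 rescaled RPKM in ripe NSd, against 53375, 47142 and 48191 in PR NSd (log2 fold change -1.56 ± 0.20 (SE), adjusted p = 0.00019). This call was lost in the fit of the 6 NSd libraries alone, with no filter and among libraries of like rRNA share. A cysteine-rich transmembrane protein (LOC105056320) averaged 2440 ± 329.9 rescaled RPKM in ripe NSd and 6961 ± 1022 in PR NSd (SD, n = 3 each). A mannose/glucose-specific lectin (LOC105053474), a sugar-binding protein, averaged 5417 ± 1919 rescaled RPKM in ripe NSd and 1521 ± 199 in PR NSd. Ubiquitin (LOC105052645), the tag of proteins to be degraded, averaged 1796 ± 18.7 rescaled RPKM in ripe NSd and 3685 ± 234 in PR NSd, with a log2 fold change of -1.03 that was inside the limit of 1 without PR NSd replicate 1 and with RPKM as deposited. The call of the lectin was lost with no filter and with the rRNA covariate. The uncharacterized loci LOC114914837 and LOC105060324 changed by -1.71 and 1.78, and the second call was lost without ripe NSd replicate 1 (adjusted p = 0.0146) and without PR NSd replicate 2 or 3. Of 6 loci that the study took up as shared with African oil palm, a list chosen on these libraries and so not independent, non-symbiotic hemoglobin 1 (LOC105033708), an oxygen and nitric oxide binding protein, had 35.5, 28.5 and 50.0 rescaled RPKM in ripe NSd, against 3.79, 2.50 and 3.10 in PR NSd (log2 fold change 3.21 ± 0.23 (SE), adjusted p = 5.41e-06). Histone H1 (LOC105059363) was higher as well, at 252, 267 and 197 rescaled RPKM in ripe NSd, against 105, 81.8 and 104 in PR NSd (log2 fold change 1.29 ± 0.25 (SE), adjusted p = 0.00215, and 0.0119 without PR NSd replicate 2, with the call also lost without ripe NSd replicate 2). Telomere repeat-binding protein 5 (LOC105044389) and lysine histidine transporter 1 (LOC105053311) changed by -1.22 ± 0.23 and -1.10 ± 0.21 (SE), and both calls were lost with RPKM as deposited and with the rRNA covariate, the second also without PR NSd replicate 2 (adjusted p = 0.0115). ERF105 (LOC105043733) had 399.9, 338 and 331 rescaled RPKM in ripe NSd, against 201, 142 and 167 in PR NSd and was not called (log2 fold change 1.07 ± 0.35 (SE), adjusted p = 0.0336), but it was called with RPKM as deposited (1.43, adjusted p = 0.00568), in the fit of the 6 NSd libraries alone and without PR Sd replicate 3. NDR1/HIN1-like protein 10 (LOC105060420) had 2731, 3590 and 3687 rescaled RPKM in ripe NSd, against 5550, 4662 and 3313 in PR NSd and was not called either (adjusted p = 0.351).

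More loci differed between the stages in NSd than in Sd, and the comparisons share no library. In Sd 151 loci (0.737%) were higher and 92 (0.449%) lower in ripe than in PR, counts that became 21 to 33 and 18 to 22 without any 1 of PR Sd replicates 1 and 2 and ripe Sd replicates 2 and 3 and 296 and 148 without PR Sd replicate 3, and the middle 90% of all loci lay between log2 fold changes of -1.21 and 0.99 in NSd and between -0.56 and 0.75 in Sd. Loci higher at the ripe stage in both palms numbered 30, or 3.35% of the NSd and 19.9% of the Sd list, and those lower in both numbered 25, or 2.35% and 27.2%. A further 50 loci were lower in ripe NSd and higher in ripe Sd, and 13 the reverse. The test of the difference, a stage by palm interaction, called 1018 loci (4.97%) with a higher change in NSd and 1266 (6.18%) with a lower one. Of the loci that rose in NSd 584 (65.2%) were called in this test with a larger change in NSd, and of those that fell 812 (76.3%). The difference tested holds the NSd change on which these loci were chosen, so both shares were in part set by that choice. The loci lower in ripe NSd had a positive fold change in Sd at 800 of 1064, with a median of 0.41, whereas those higher in ripe NSd had a positive one at 455 of 896 and a negative one at 441, with a median of 0.01, as over all loci (0.01). Across the 20495 loci the fold changes of NSd and Sd had r = -0.16, given as a description of loci that are not independent.

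Several jasmonate and stress loci moved in opposite directions in the palms. The JAZ loci had a median fold change of -0.88 in NSd and 1.03 in Sd, where 2 of 16 were called higher and none lower. In the interaction 8 of the 16 were called lower and 2 higher. For TIFY 9 (LOC105051062) Sd showed a change of 2.01 ± 0.32 (SE, adjusted p = 0.00561), and the palms differed by -5.18 ± 0.46 (SE, adjusted p = 4.97e-05). For WRKY76 (LOC105060191) the values were 2.18 ± 0.28 (SE, adjusted p = 0.00258) in Sd and -4.89 ± 0.40 (SE, adjusted p = 3.52e-05) for the difference, for ERF019 (LOC105036338) 3.02 ± 0.51 (SE, adjusted p = 0.00678) and -7.0 ± 0.72 (SE, adjusted p = 9.59e-05), and for the chitin elicitor-binding protein (LOC105061543) 1.70 ± 0.14 (SE, adjusted p = 0.000232) and -3.91 ± 0.20 (SE, adjusted p = 4.36e-06). Each of these 4 loci was called in both palms with opposite signs. The Sd counts depended on single libraries, and the Sd calls of these 4 loci were not followed with a library left out. Fatty acid synthesis had a median of 0.28 in NSd and -0.33 in Sd, with 13 of 46 loci called higher in the interaction, and the stearoyl-ACP desaturase (LOC105049670) differed by 3.74 ± 0.48 (SE, adjusted p = 0.000304). Phosphoinositide phospholipase C 2 (LOC105057088), a signaling enzyme that releases calcium in animal cells, had 24.8, 29.4 and 26.9 rescaled RPKM in ripe NSd, against 10.6, 10.2 and 10.4 in PR NSd, and its difference between palms was 2.29 ± 0.12 (SE, adjusted p = 4.63e-06), the smallest p among described loci that rose and had a group mean of at least 20.

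BURP domain loci rose in both palms, with medians of 2.18 in NSd and 2.31 in Sd, 7 of 12 called higher in ripe Sd too and none called in the interaction (limma). For BURP domain-containing protein 3-like (LOC105036039) the fold change was 3.17 ± 0.26 (SE) in NSd and 3.28 ± 0.26 (SE, adjusted p = 0.000191) in Sd, and the difference -0.12 ± 0.36 (SE, adjusted p = 0.839). Peroxidase 10 (LOC105055428) and the extensin (LOC105037998) were also called in Sd, at 1.49 ± 0.14 (SE, adjusted p = 0.00039) and 2.50 ± 0.29 (SE, adjusted p = 0.0013), as was ACC oxidase 1 (LOC105047965) at 1.78 ± 0.27 (SE, adjusted p = 0.00454). The heat shock loci had a median of -0.06 in Sd, where HSP83 (LOC105054741) had a fold change of -0.58 ± 0.31 (SE, adjusted p = 0.271), and 13 of the 97 were called lower in the interaction and none higher (limma).

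**Figure D5:**
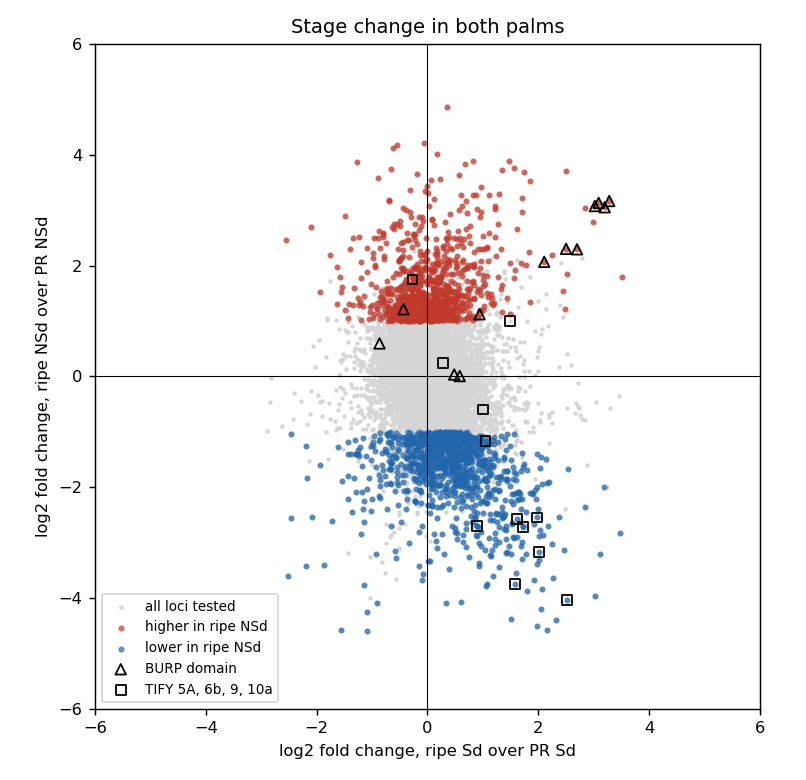
Log2 fold change of ripe over PR in NSd (y axis) against the same in Sd (x axis) for the 20495 loci tested, with loci higher in ripe NSd in red and lower in blue. Squares mark TIFY 5A, 6b, 9 and 10a loci, most of which lay at negative values in NSd and positive values in Sd, and triangles mark BURP domain loci, 7 of which lay above 2 in both palms.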

How the data were processed

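The authors sequenced single reads of 100 cycles on an Illumina NovaSeq, trimmed them with bcl2fastq 2.20.0.422, aligned them with BWA-MEM to the transcriptome of African oil palm (E. guineensis, EG5), counted them with SAMtools, summed transcripts within loci and deposited RPKM values for every library. Further tools in the submitters' processing notes are FastQC, DESeq, DESeq2 and HOMER. Reads of a second species on this transcriptome, and of near-identical loci, can be lost or shared out. Library totals were recovered from the steps between RPKM values of weakly expressed loci and add up to 277584786 reads, and at 17813 of 26627 detected loci (66.9%) all values were whole reads under a single length, within 0.001 reads. The rRNA share was summed over 88 of 109 rRNA loci and is a lower bound. One row without a locus name in each file was left out.

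RPKM values were rescaled by the median ratio, put on a log2(value + 1) scale and tested in R 4.3.3 with limma 3.58.1, using its variance trend and 1 fit of all 12 libraries with 4 group means. A call needed an adjusted p (Benjamini-Hochberg) below 0.01 and a log2 change of more than 1 in size. The fit was tested on simulated data. Other steps used pandas 2.3.3 and numpy 2.4.6 under Python 3.11.15. No pair of libraries held a locus above 0 with identical RPKM. Alternatives were other scalings, a pseudocount of 0.1, other filters, the 6 NSd libraries alone, no trend, a robust fit, each library left out and, chosen after seeing the data, the rRNA share as a covariate and a subset of NSd libraries of like rRNA share.

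The 55 gene lists are patterns on locus descriptions. Members, lists and rules were chosen with earlier results of these data known, and patterns that matched unrelated words were corrected after the files were read. Named loci are the 12 highest and 12 lowest changes among called, non-overlapping, described loci with a higher group mean of at least 20, up to 3 called members per list with the smallest p and a mean of at least 5, the 6 loci of the study, the 10 called loci with the highest mean and the 5 with the smallest interaction p in each direction. The text gives 92 of the 162 loci these rules name. A further 30 loci were chosen after their values were seen. They are the TIFY 10a loci other than LOC105053062, the TIFY 5A pair LOC105033988 and LOC105033989, TIFY 6b, allene oxide synthase 1, lipoxygenase 5, MYC2, ACC oxidase LOC105061033, PLT2, WRKY70, NAC68 (LOC105052358), NAC104, bHLH35, calmodulin-7, HSP83, heat shock cognate 70, chitinase 2-like, SAUR32, the auxin efflux carrier 1c, ORR9, ORR3, endoglucanase 19, peroxidases 10 and 17, SWEET17, beta-amylase 3, the thaumatin-like protein and the BURP locus LOC105042312. Promoter motifs were not analysed here.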

Additional observations from a re-analysis of the deposited data

Results flagged for a closer look

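The interaction test in limma called a different stage change in NSd and Sd at 1018 loci with a higher and 1266 loci with a lower change in NSd. The differences below are those of loci for which the text gives or the rule names this test, each the log2 fold change of NSd minus that of Sd, and each was called at an adjusted p under 0.01. Among loci that fell in NSd the difference was -7.0 for ERF019 (LOC105036338), -6.56 for TIFY 5A (LOC105059530), -6.49 for PUB23 (LOC105037988) and -6.24 for MST4 (LOC105032465). It was -5.18 for TIFY 9 (LOC105051062), -4.89 for WRKY76 (LOC105060191), -4.83 for ACC oxidase (LOC105035107) and -4.78 for the glycerophosphodiester phosphodiesterase GDPD1 (LOC105051040). Calmodulin (LOC105042206) differed by -4.61, TIFY 10a (LOC105058608) by -4.18, the chitin elicitor-binding protein (LOC105061543) by -3.91 and RESPONSE TO LOW SULFUR 3 (LOC105033495) by -3.38. Smaller differences were -3.17 for YPQ1 (LOC105055832), -2.65 for glutamate decarboxylase (LOC105041902) and -2.05 for allene oxide synthase 1 (LOC105060026).

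Among loci that rose in NSd the difference was 4.75 for MADS32 (LOC105041020), 4.73 for gibberellin-regulated protein 12 (LOC105046106), 4.48 for expansin-B5 (LOC105043691) and 4.41 for granule-bound starch synthase 1 (LOC105059288). It was 4.38 for endoglucanase 19 (LOC105040704), 3.74 for stearoyl-ACP desaturase (LOC105049670), 3.69 for the ACC oxidase LOC105061033 and 3.47 for boron transporter 2 (LOC105040010). Photosystem I subunit IV A (LOC105053650) differed by 3.30, aspartic proteinase oryzasin-1 (LOC105041016) by 2.60 and phosphoinositide phospholipase C 2 (LOC105057088) by 2.29. PR NSd had the lowest mean of the 4 groups at 853 of the 896 higher loci. At MADS32 the means were 22.0 rescaled RPKM in ripe NSd and 0.350 in PR NSd, against 13.4 in ripe Sd and 20.6 in PR Sd. At granule-bound starch synthase 1 they were 505.5 and 35.9, against 350.5 and 491.6 in the same order. Each palm is 1 individual and each stage 1 bunch, so palm, bunch and shedding cannot be told apart. Groups of 3 libraries were too small for a test of single libraries that stand apart.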

How the results depend on the processing

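Of 122 loci named, 74 kept their side of the threshold under every alternative run and none changed sign. The call was lost at 46 of them among NSd libraries of like rRNA share and at 18 with the rRNA covariate, both chosen after seeing the data. With the covariate these were TIFY 5A (LOC105033989), TIFY 6b, allene oxide synthase 1, lipoxygenase 5, ACC oxidase LOC105061033, NAC68 (LOC105052358), glutathione S-transferase U19, SAUR32, gibberellin 2-beta-dioxygenase 8, endoglucanase 19, XTH 22, oleosin, histone H1, telomere repeat-binding protein 5, lysine histidine transporter 1, the lectin, ubiquitin and LOC105060324. Of the 896 higher and 1064 lower loci, RPKM as deposited gave 1592 and 630, a pseudocount of 0.1 gave 1376 higher, and an adjusted p under 0.05 with no fold limit gave 3784 and 3307. The NSd libraries of like rRNA share (ripe NSd replicate 3 against PR NSd replicates 2 and 3, with the lone ripe library assumed to vary like the other groups) gave 490 and 454, with fewer libraries behind each value. The remaining alternatives stayed within 1.5 times of both counts. Leaving out each of the 12 libraries gave 750 to 903 higher and 831 to 1098 lower loci. In Sd the counts of 151 higher and 92 lower became 30 and 26 with no filter, 972 and 820 with no fold limit and 240 higher with the rRNA covariate, and 21 to 296 higher and 18 to 148 lower with a library left out, where PR Sd replicates 1, 2 and 3, ripe Sd replicates 2 and 3 and ripe NSd replicate 2 each moved both counts by over 1.5 times. The interaction counts of 1018 and 1266 became 1884 and 835 with RPKM as deposited, 1543 higher with rRNA out of the totals, 493 and 695 with like rRNA shares, 2974 and 2762 with no fold limit, and 754 to 1087 and 942 to 1388 with a library left out. The cause of these moves was not tested. No paired analysis was possible because the labels give no shared replicate numbers. Depth limits loci near 1 RPKM, whose group means rest on few reads.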

Other observations

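Few loci of the housekeeping lists were called between the stages of NSd. Of 261 cytosolic ribosomal protein loci none was higher and 1 was lower, the 60S protein L10 (LOC105057229) at 169, 166 and 192 rescaled RPKM in ripe NSd, against 537, 568 and 554 in PR NSd (log2 fold change -1.65 ± 0.14 (SE), adjusted p = 1.27e-05 with limma). At an unadjusted p under 0.05 there were 8 higher and 116 lower, and the median of the list was -0.21, or 0.15 with RPKM as deposited. None of 75 proteasome loci was called (limma; 4 higher and 13 lower at an unadjusted p under 0.05). Of the 63 rRNA loci tested, all had a negative fold change, with a median of -1.72, and 2 were called.

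Metallothioneins, small metal-binding proteins that are abundant in ripening fruit, rose at 2 of 6 loci and fell at none (limma; none was lower at an unadjusted p under 0.05). A type 2 locus (LOC105056942) had 491, 628 and 531 rescaled RPKM in ripe NSd, against 33.9, 36.4 and 29.3 in PR NSd (log2 fold change 4.01 ± 0.22 (SE), adjusted p = 8.94e-07). A second type 2 locus (LOC105056944) had 2412, 3382 and 2924 rescaled RPKM in ripe NSd, against 1275, 1194 and 1159 in PR NSd (log2 fold change 1.25 ± 0.15 (SE), adjusted p = 0.000129). Of 26 aquaporins, channels for water and small solutes, 4 rose (15.4%) and 1 fell (3.85%), where 4.37% and 5.19% of all loci did. PIP1-2 (LOC105059047) had 75.2, 124 and 118 rescaled RPKM in ripe NSd, against 18.3, 15 and 22.3 in PR NSd. The aquaporin NIP6-1 (LOC105038152) had 43.0, 49.1 and 39.8 rescaled RPKM in ripe NSd, against 8.35, 11.1 and 11.1 in PR NSd. Both were among the members that rose. Of the pathogenesis-related loci, a thaumatin-like protein (LOC105033367) had 1047, 1300 and 1009 rescaled RPKM in ripe NSd, against 186, 160.2 and 151 in PR NSd (log2 fold change 2.74 ± 0.37 (SE), adjusted p = 0.000235). This locus was chosen after its values were seen, and other thaumatin-like loci were called in both directions. Cytosolic ascorbate peroxidase (LOC105045793), which removes hydrogen peroxide, was higher at 114, 90.1 and 105 rescaled RPKM in ripe NSd, against 39.0, 44.0 and 50.7 in PR NSd, 1 of 2 called loci among 35 of reactive oxygen scavenging. The loci GDPD1 (LOC105051040), glutamate decarboxylase (LOC105041902), RESPONSE TO LOW SULFUR 3 (LOC105033495) and aspartic proteinase oryzasin-1 (LOC105041016) changed by -3.60 ± 0.22, -2.16 ± 0.12, -3.33 ± 0.16 and 2.09 ± 0.12 (SE) in NSd.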
